A study of Mus musculus with 4 samples.

Results

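The cells described here are cerebellar nuclei-type neurons of the mouse embryo that carried transcripts of Gria1, Col25a1, Cntnap4 and Sema3e, and they numbered 54 of 12546 cells kept. They were found from counts of unique molecular identifiers (UMIs, each standing for 1 captured transcript). Barcodes were kept if they had 500 genes or more, 1000 UMIs or more, and no more than 10% of UMIs from mitochondrial genes. A gated neuron had at least 2 UMIs of Meis2, more Meis2 than Pax6, and no UMI of Olig2, Tbr1 or Lmx1a, which 2495 cells met. A member was a gated neuron with at least 2 UMIs summed over the 4 genes and with that sum above each of 4 other sums, built on Bnc2, Grm5, Rflna and Foxp2 with their partner genes. Gated neurons led by one of those other sums, with at least 2 UMIs of it, are called here the Bnc2, Grm5, Rflna and Foxp2 groups, with 867, 176, 223 and 56 cells. The remaining 1119 gated neurons were in no group.

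The cells had been sorted for tdTomato from the cerebellum at E14.5 (the embryonic day) and sequenced with droplet 3′ chemistry, in 2 control and 2 conditional knockout (CKO) libraries. Control embryos were Atoh1-Cre/+; R26LSL-tdT/+, and CKO embryos carried En1lox/lox and En2lox/lox beside the same Atoh1-Cre/+ and R26LSL-tdT/+ alleles. Both groups therefore carried Atoh1-Cre and the tdTomato reporter, and Engrailed genes could be deleted in the CKO only where Atoh1-Cre had acted. Several embryos were pooled for each library, and the labels do not say which libraries shared a litter or a day, so the spread between 2 libraries may be partly technical.

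Excitatory neurons of the cerebellar nuclei carry the output of the cerebellum to the rest of the brain. They arise from Atoh1-expressing progenitors of the rhombic lip, before most granule cells, and use glutamate loaded into vesicles by the transporter VGLUT2, the product of Slc17a6. Gria1 encodes an AMPA-type glutamate receptor subunit, and Cntnap4 a Caspr-type adhesion protein of the neurexin superfamily. Col25a1 encodes a membrane-bound collagen known for its part in motor axon innervation of muscle, and Sema3e a secreted semaphorin that is read by the receptor plexin D1. En1 and En2 encode the Engrailed homeodomain transcription factors, which pattern the midbrain and cerebellum. In the GRCm38 annotation the whole genes lie at chr11:57011387-57330244 (Gria1), chr3:130131501-130599877 (Col25a1), chr8:112570043-112882717 (Cntnap4) and chr5:14025276-14256689 (Sema3e), all on the plus strand.

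The libraries differed in depth and cell quality. Total UMIs ranged from 14998150 to 33709450, and a kept cell of the controls had a median of 2734 or 2122 UMIs, against 5352 or 5544 in CKO cells. Among gated neurons outside the Gria1 group the medians were closer, at 2758.5 and 2216 for the controls against 3073.5 and 2314 for the CKO. Any pair of libraries shared 1 to 6 kept barcodes, none of them with a member. No label gives a batch, so preparation and genotype cannot be told apart.

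Members were present in every library, with 22 and 28 cells in control replicates 1 and 2 and 3 and 1 cells in CKO replicates 1 and 2. As a share of all kept cells they made up 0.756% of control 1 and 0.712% of control 2, against 0.149% of CKO 1 and 0.0270% of CKO 2, so that the controls lay close together and both stood above the CKO. The group means were 0.734% ± 0.0307 (SD, n = 2) and 0.0883% ± 0.0866 (SD, n = 2). Gated neurons themselves made up 13.8% and 37.2% of kept cells in controls 1 and 2, against 18.5% and 7.01% in CKO 1 and CKO 2. A share of kept cells therefore also depends on how many gated neurons a library held. The Bnc2 group also had both controls above both CKO libraries among kept cells, at 6.08% and 12.8% against 5.63% and 1.95%. The Grm5, Rflna and Foxp2 groups did not. As a share of gated neurons members made up 5.47% (95% Wilson interval 3.64% to 8.15%) of control 1 and 1.91% (1.33% to 2.75%) of control 2. In the CKO they made up 0.809% (0.275% to 2.35%) and 0.386% (0.0682% to 2.15%). These intervals cover counting error only, and those of control 2 and both CKO libraries overlapped. The controls themselves differed, with intervals that did not meet.

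**Figure D1:**
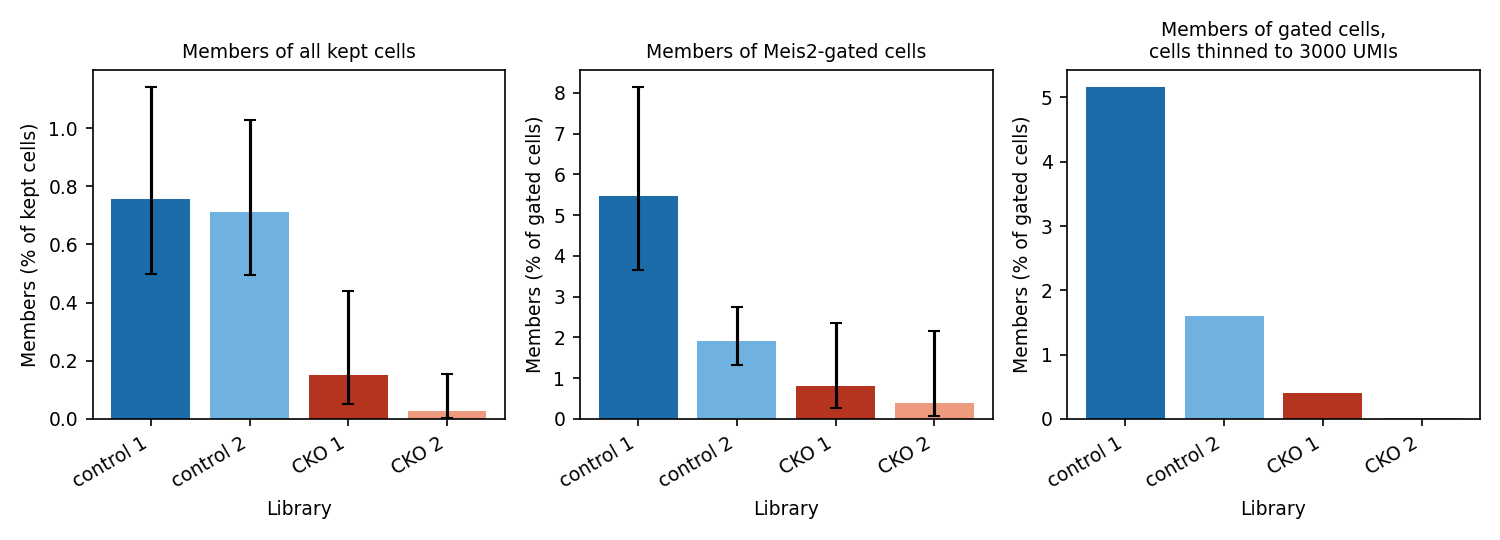
Members as a percentage of all kept cells (left), of gated neurons (middle) and of gated neurons after thinning to 3000 UMIs (right), with a bar for each library. Cells of fewer than 3000 UMIs were left out on the right. Error bars on the left and in the middle are 95% Wilson intervals. Both controls were above both CKO libraries in each panel, and the 2 controls were alike on the left but not in the middle.

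The share of gated neurons was lower in the CKO by a log2 ratio of -2.40 (SE 0.99) in edgeR's quasi-likelihood test on numbers of cells per class. It had an unadjusted p of 0.0322 and an adjusted p of 0.0965 over 6 classes of gated neurons, so it did not pass the threshold of 0.05. None of the 6 classes did (0.0% called), and the Rflna group, which was larger in the CKO with a log2 ratio of 2.07, had the same adjusted p of 0.0965 in edgeR. Both controls stood above both CKO libraries for 2 of the 6 classes (33.3%), the Gria1 group and the Bnc2 group. The exact two-sided permutation test of the 4 library shares gave p = 0.333, the smallest it allows. With all kept cells as denominator edgeR gave a log2 ratio of -3.15 (SE 1.17) for members, which did not pass the threshold of 0.05 either.

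The share was also read at equal depth. Each kept cell of at least 3000 UMIs was thinned to 3000 UMIs, and shallower cells were left out. The members' share of gated neurons, as a mean over 100 draws, was then 5.16% and 1.60% for the controls against 0.411% and 0.0120% for the CKO. Thinning left out 12, 22, 1 and 1 of the members as too shallow, in the order control 1, control 2, CKO 1 and CKO 2. In that order it also left out 224 of 402, 1105 of 1463, 180 of 371 and 171 of 259 gated neurons. At 1500 UMIs the group means were 2.69% ± 1.78 and 0.367% ± 0.175 (SD, n = 2 each). Among cells of 4000 UMIs or more with no more than 5% from mitochondrial genes, only 2, 0, 2 and 0 members remained in the same order, too few to compare. In these data, fewer cells of the type and less of the 4 transcripts per cell cannot be told apart.

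Members were a minority of the gated neurons that carried the 4 transcripts. At least 2 UMIs of the 4 genes were found in 183 gated neurons, of which 54 had them above all other sums, 29 tied with the highest other sum and 100 had another sum above. The Bnc2 sum was the one above in 78 of those 100, the Rflna sum in 10, the Foxp2 sum in 8 and the Grm5 sum in 6, with some cells below more than 1. Per library, carriers numbered 71, 82, 22 and 8 in the order control 1, control 2, CKO 1 and CKO 2. They made up 17.7% and 5.60% of the controls' gated neurons, against 5.93% and 3.09% for the CKO, so control 2 and CKO 1 overlapped on this wider definition. Of all kept cells carriers made up 2.44% and 2.09% for the controls against 1.10% and 0.216% for the CKO, with no overlap. After thinning to 3000 UMIs they made up 16.7% and 7.47% of gated neurons against 2.52% and 2.19%, and after thinning to 1500 UMIs 7.18% and 2.93% against 0.870% and 1.07%, again with no overlap. Of the carriers, 31.0% and 34.1% were members in controls 1 and 2, against 13.6% and 12.5% in CKO 1 and CKO 2. Of the 10 cells below the Rflna sum, 9 came from CKO 1, where the Rflna group was itself deep with a median of 13662 UMIs. The part of that depth in the smaller share of members among CKO 1 carriers was not tested.

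**Figure D2:**
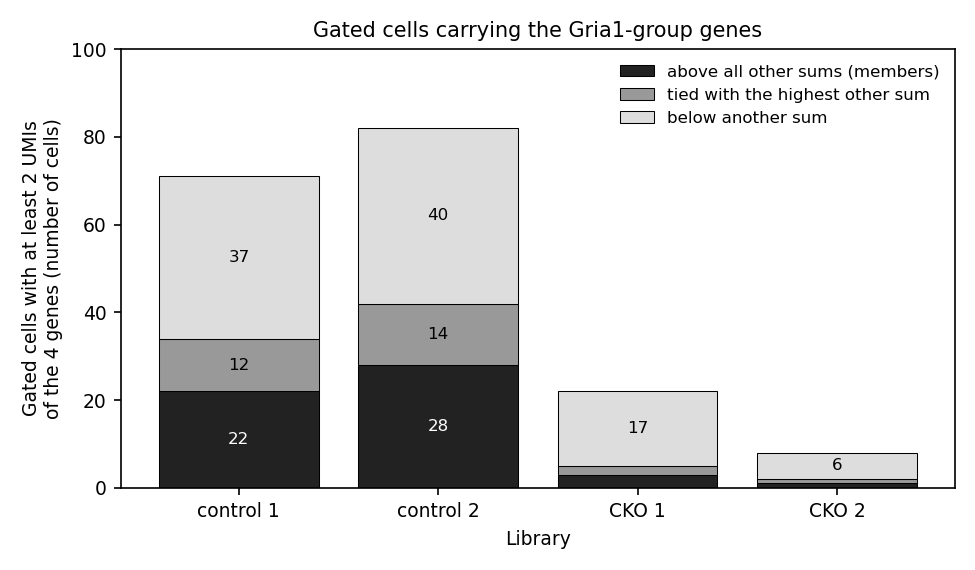
Number of gated neurons with at least 2 UMIs of Gria1, Col25a1, Cntnap4 and Sema3e together in each library, divided by whether that sum was above all other sums (members), tied with the highest other sum or below another. Members were 22 of 71, 28 of 82, 3 of 22 and 1 of 8 such cells.

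The threshold ran through a continuum of low counts. Of the 54 members 23 had exactly 2 UMIs of the 4 genes, 26 led the next sum by 1 UMI, and 12 had 5 UMIs or more, all of these in the controls. Just outside, 35 gated neurons had 1 UMI of the 4 genes and none of the other sums, 29 carriers were tied with another sum, and 18 were 1 UMI below one. Members held 188 of the 883 UMIs of the 4 genes found in gated neurons, which is 21.3%.

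Few members carried more than 2 of the 4 genes, and 23 of the 54 had only 2 UMIs of them, too few to show 3. Among the 54 members 22 carried 1 of the genes, 26 carried a pair, 6 carried 3 and none carried all 4. Col25a1 and Sema3e were each found in 26 members, Gria1 in 23 and Cntnap4 in 17. Gria1 or Col25a1 was present in 46 members, yet both were present in only 3, so the pair of names holds for the pooled members and for few single cells at this depth. The most frequent pair was Col25a1 with Sema3e, in 14 members, followed by Gria1 with Sema3e in 10 and Gria1 with Cntnap4 in 8. Over all gated neurons of each control, every pair was found together in more cells than the product of the 2 genes' shares gave. In the CKO libraries not every pair was. For Col25a1 with Sema3e it was 14 cells against 8.04 in control 1 and 22 against 7.82 in control 2. For Col25a1 with Cntnap4 it was 4 against 3.78 and 4 against 2.46. The part of cell depth in this was not tested. The controls also differed in their mix. Col25a1 was in 7 of 22 members of control 1 and 17 of 28 of control 2, and Cntnap4 in 12 of 22 and 5 of 28.

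The levels of the 4 genes follow from the rule and are given as description only, in CPM, a gene's summed UMIs per 1000000 UMIs of the pooled cells. On this scale 1 UMI equals 13.96 CPM in the members of control 1 and 14.16 CPM in those of control 2. Gria1 stood at 572 and 326 CPM in the members of controls 1 and 2, against 45.9 and 13.3 CPM in the other gated neurons. Col25a1 stood at 181 and 467 CPM against 45.2 and 34.1 CPM. Sema3e had 237 and 269 CPM against 56.7 and 29.5 CPM, and Cntnap4 had 321 and 99.1 CPM against 18.4 and 7.86 CPM. Outside the members, Gria1 was not evenly low: the Foxp2 group of control 1 had 351 CPM, from 9 cells, while that of control 2 had 0. Sema3e was spread over the Bnc2, Grm5 and Foxp2 groups and the ungrouped cells of the controls, at 15.9 to 73.1 CPM, and was at most 9.10 CPM in their Rflna groups.

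**Figure D3:**
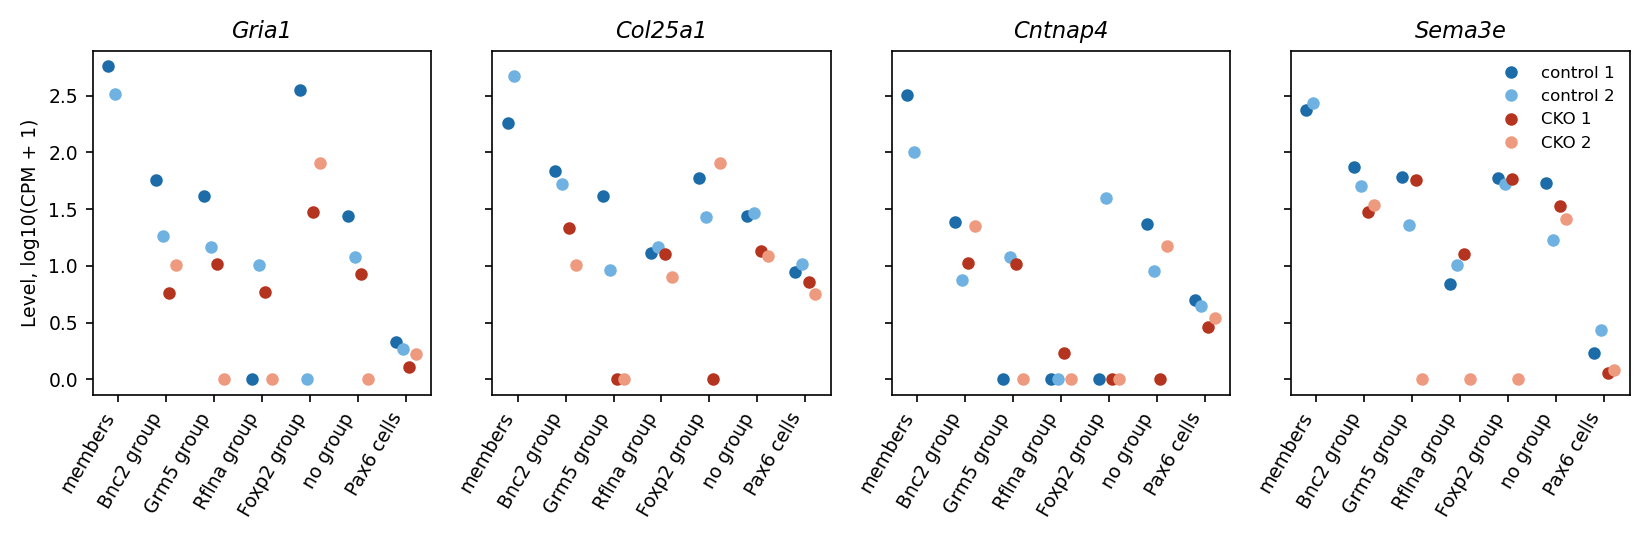
Level of Gria1, Col25a1, Cntnap4 and Sema3e, as log10(CPM + 1), in the members, the other groups of gated neurons, gated neurons of no group, and cells with at least 2 UMIs of Pax6 and none of Meis2, with a point for each library. CKO members are not drawn because they were 3 and 1 cells; the members' values follow from the way they were chosen.

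As a measure of background, cells with at least 2 UMIs of Pax6 and none of Meis2 were counted in the same way. A Gria1 UMI was found in 0.706% and 0.259% of them in the controls, against 8.16% and 2.51% of the gated neurons outside the members. A Sema3e UMI was found in 0.441% and 0.518%, against 15% and 6.34%. Col25a1 was closer to background, in 4.24% and 2.59% of Pax6 cells against 11.1% and 6.41% of the other gated neurons. In CKO 1 the Pax6 cells had a median of 12576.5 UMIs and the other gated neurons one of 3073.5 UMIs, and no order is read from shares at such unequal depth. There Col25a1 was at 6.22 CPM in Pax6 cells and 13.3 CPM in the other gated neurons, and Cntnap4 at 1.88 and 3.05 CPM.

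Of the markers of excitatory cerebellar nuclei neurons, Meis2 was part of the rule, and the other 6 were all detected in members of both controls. These 6 summed to 2024 and 2223 CPM in members and to 1538 and 1912 CPM in the other gated neurons, and with Meis2 to 3391 and 4106 CPM against 3224 and 4178 CPM. Slc17a6 was at 684 and 524 CPM in members and at 345 and 335 CPM in the other gated neurons, with the members higher in both controls by a mean log2 ratio of 0.80 ± 0.24 (SD, n = 2, with 10 CPM added). Lhx9, a LIM homeodomain factor of these neurons, was at 572 and 779 CPM against 377 and 567 CPM. Lhx2 was at 223 and 241 CPM against 212 and 218 CPM. Pou3f1, a POU-domain factor, was at 97.7 and 99.1 CPM against 48.2 and 68.3 CPM, from 7 UMIs in each control. Meis1 was lower in members, at 307 and 382 CPM against 418 and 494 CPM. Nr2f1 was mixed, at 140 and 198 CPM against 137 and 230 CPM. Thus 4 of the 6 markers were higher in members of both controls and 1 was lower.

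Markers of other cells were few in the members. No UMI of the microglial, endothelial or mesenchymal markers was found in any member, and of 7 GABAergic markers only Gad2 was seen, with 1 UMI in control 1 and 1 in CKO 2. Haemoglobin and the other erythroid markers summed to 55.8 and 850 CPM in the members of the 2 controls, close to the 46.7 and 810 CPM of the other gated neurons. Glial and progenitor markers summed to 279 and 70.8 CPM, against 276 and 79.4 CPM. Within that list, Sox9 had 11 UMIs in 7 members of control 1, at 154 CPM against 35.2 CPM in the other gated neurons, and none in control 2. Its part in the levels below was not tested. Th, which encodes the first enzyme of catecholamine synthesis, was found in 10 members of each control, at 223 and 340 CPM against 171 and 117 CPM, while Chat, Isl1, Tph2 and Slc6a2 had no UMI. No member was called a doublet by the simulated-doublet score.

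Beyond the genes of the rule, 12 genes were at least 2-fold higher in members than in the other gated neurons in both controls, of 1808 genes with at least 100 CPM in members (0.664%). These comparisons have no test, because the 4 genes were themselves taken from a clustering of these cells. The 12 included axon receptors and surface proteins. Nrp1, a co-receptor for class 3 semaphorins, was at 768 and 680 CPM in members and 358 and 213 CPM in the others, a mean log2 ratio of 1.35 ± 0.39 (SD, n = 2). It was detected in 13 of 22 and 21 of 28 members. Cdh13, a cadherin anchored to the membrane by a lipid, was at 391 and 241 CPM against 169 and 56.3 CPM. Opcml, an adhesion protein of the IgLON family, was at 154 and 56.6 CPM against 32.2 and 11.9 CPM. In control 2 it rested on 4 UMIs in 2 cells.

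Cd47, an integrin-associated surface protein, was at 502 and 609 CPM in members against 224 and 246 CPM in the others, and was found in 14 and 19 members. Atp1b1, a subunit of the sodium-potassium pump, was at 586 and 312 CPM against 138 and 116 CPM. Spock1, a secreted proteoglycan, was at 307 and 212 CPM against 81.2 and 65.8 CPM, and Serpine2, a secreted protease inhibitor, at 167 and 85.0 CPM against 58.2 and 18.7 CPM. Chgb, a protein of dense-core secretory granules, was at 419 and 354 CPM against 192 and 153 CPM, with a mean log2 ratio of 1.12 ± 0.05 (SD, n = 2). The transcription factor Onecut2 was at 433 and 269 CPM against 165 and 117 CPM. Armh4 was at 544 and 297 CPM against 145 and 103 CPM, Aqp6, of the aquaporin family, at 167 and 113 CPM against 46.7 and 20.05 CPM, and Rnf44 at 112 and 156 CPM against 50.5 and 65.6 CPM. Against the Bnc2 group alone the count was again 12, and against the Grm5 group, which held 16 cells in control 1, it was 31, but these were not all the same genes. Of the 12 genes above, 7 were at least 2-fold higher than in the Bnc2 group in both controls, and Nrp1, Cdh13, Cd47, Chgb and Spock1 were not. Against the Grm5 group 8 were, and Aqp6, Cd47, Rnf44 and Atp1b1 were not. In the Foxp2 group of control 1, of 9 cells, 4 of the 12 were higher than in members, with Atp1b1 at 1110 CPM, Opcml at 234 CPM, Spock1 at 380 CPM and Onecut2 at 467 CPM, while in control 2 none was. After 1 draw of thinning to 3000 UMIs, which left 9 and 5 members, 5 of the 12 were still at least 2-fold higher in both controls. In control 1 the log2 ratio was then -1.52 for Spock1, -0.92 for Serpine2 and -0.58 for Atp1b1, so the direction of these 3 genes did not hold there.

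In the opposite direction 14 of 1838 genes with at least 100 CPM in the other gated neurons were at least 2-fold lower in members of both controls (0.762%). Single genes of the granule lineage were among them, although all 9 markers of that lineage summed to 1786 and 2096 CPM in members against 2164 and 1931 CPM in the others. Barhl1, a homeodomain factor of granule cell precursors, was at 83.7 and 42.5 CPM in members against 233 and 134 CPM in the others. Mfap4, an extracellular matrix gene used as a granule lineage marker, was at 41.9 CPM and 0 against 149 and 119 CPM. Hsd11b2, which encodes an enzyme that inactivates glucocorticoids, had 1 UMI in each control, against 147 and 74.5 CPM in the others. Thsd7b was at 27.9 and 14.2 CPM against 168 and 78.6 CPM. Ctxn1, Apex1, Ctr9, Kmt5b, Jph4, Zfp706, Ndufv2 and Gm3764 followed, each resting on 1 to 5 UMIs in the members of a control. The dividing-cell markers were low as well. The 6 of them summed to 126 and 113 CPM in members against 314 and 224 CPM in the others.

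**Figure D4:**
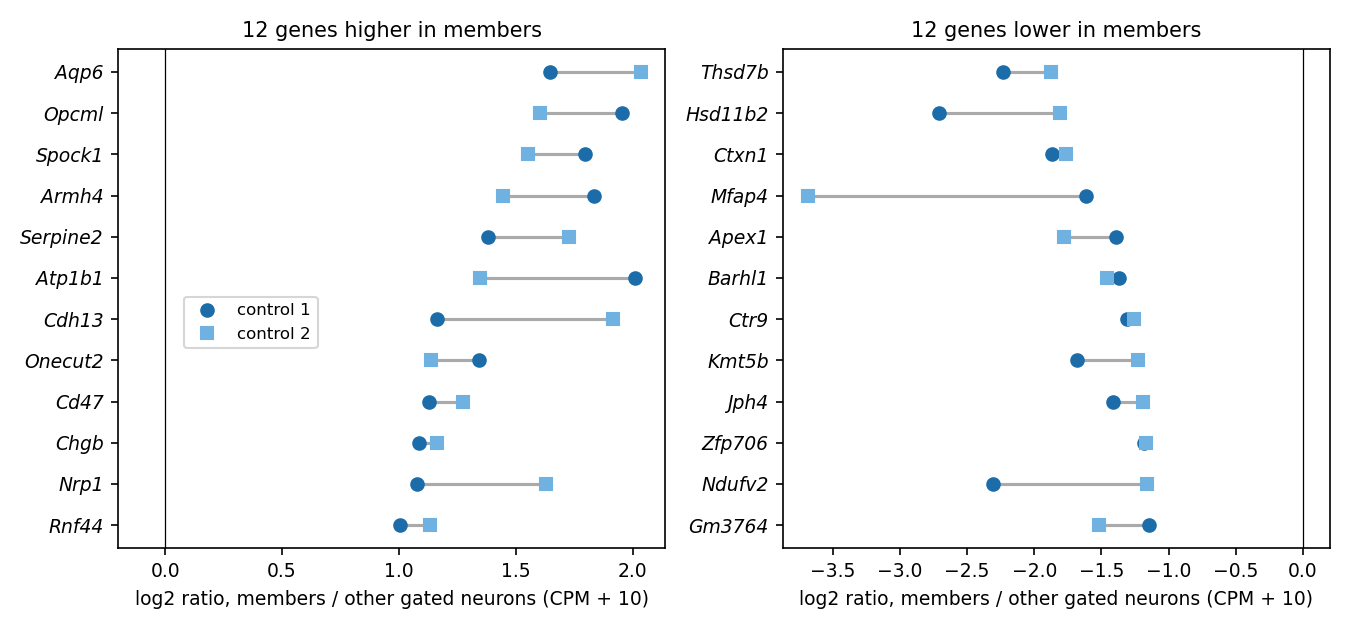
Log2 ratio of members to the other gated neurons, after 10 CPM was added to both, for 12 genes higher in members (left) and 12 lower (right); circles are control 1 and squares control 2, joined by a line. All ratios are at least 1 in size because the genes were chosen that way; Mfap4 had no UMI in control 2, so its ratio there depends on the added 10 CPM.

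The choice of genes planned first asked for the largest smallest ratio over all 4 libraries, and the choice from the controls alone was added later. The planned choice depended on the single member of CKO 2, in which 1 UMI equals 557 CPM. Gm16551, Armh4, Onecut2 and Chgb were at least 2-fold higher in members in all 4 libraries. Onecut2 was at 433, 269, 693 and 557 CPM in members and 165, 117, 242 and 180 CPM in the others, in the order control 1, control 2, CKO 1 and CKO 2. Med12l, Mesd, Kcnma1, Gadd45g, Tbk1, Tmem86a, Ndufaf2 and Smc5 came next, each with 1 or 2 UMIs in the CKO 2 cell. The genes lowest by the planned choice were Sulf2, Dennd5a, Dck, Tmem120a, Pkdcc, Ptpn2, Odf2l, Lhx1, Hsd11b2, Zc4h2, Tmcc2 and Pms2. All but Lhx1 and Hsd11b2 had no UMI in any member, and their levels in the other gated neurons were at most 101 CPM. A count of 0 in the members of control 1 allows up to 41.9 CPM (3 UMIs), so most of these differences were not detectable at this depth in a single library.

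Lists of related genes were then read in the controls, against 7979 genes with at least 20 CPM in either class, of which 25.0% were higher in members in both controls and 28.8% lower. Voltage-gated channel genes were higher in both controls for 11 of 20 and lower for 1, with median log2 ratios of 0.25 and 0.32, where all genes had -0.02 and -0.05. The calcium channel subunit gene Cacna2d1 was at 684 and 750 CPM in members against 430 and 471 CPM. The A-type potassium channel gene Kcnd3 was at 321 and 212 CPM against 125 and 106 CPM. Both examples were picked after their values were seen. Contactins, Caspr proteins, neurexins and neuroligins were higher in both controls for 6 of 15 and lower for none.

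Semaphorins, plexins and neuropilins were higher in both controls for 9 of 21 and lower for 4. The receptor Plxnd1, which reads Sema3e, had no UMI in any member and 16.1 and 6.23 CPM in the other gated neurons, a level below what a count of 0 in the members allows. Nrp2 was at 55.8 and 113 CPM against 36.8 and 29.5 CPM, and Sema7a, a membrane-anchored semaphorin, had 1 UMI in control 1 and none in control 2, against 98.8 and 47.9 CPM. AMPA and kainate receptor genes and their partners were higher for 5 of 17 and lower for 3. Gria2, the subunit that limits calcium entry through AMPA receptors, was the most abundant Gria gene, at 2052 and 1062 CPM in members against 1427 and 1085 CPM in the others, with groups that overlapped. Gria4 was at 140 and 198 CPM against 216 and 167 CPM. NMDA and metabotropic receptor and scaffold genes were higher for 4 of 11 and lower for 2.

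Transcription factors of nuclei neurons leaned the other way, with 5 of 22 higher in both controls and 12 lower. Ebf1, a helix-loop-helix factor of differentiating neurons, was the most abundant of those higher, at 2331 and 2535 CPM in members against 981 and 1765 CPM in the others. Its relative Ebf3 was lower, at 195 and 170 CPM against 253 and 369 CPM. The LIM-only gene Lmo3 was at 140 and 113 CPM against 46.7 and 69.6 CPM. Meis1, at 307 and 382 CPM against 418 and 494 CPM, and Nr2f2, at 83.7 and 85.0 CPM against 114 and 161 CPM, were both lower. Guidance genes of the netrin, Slit, Robo and Eph families were even, with 8 of 23 higher and 8 lower, as were presynaptic genes with 6 and 7 of 22. Of the p53 target and apoptosis genes none of 14 was higher and 4 were lower, and of the stress genes 2 of 11 were higher and 5 lower.

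The deleted genes were read in the members first by UMIs. En2 had 20 and 9 UMIs in the members of the controls and 2 and 0 in those of the CKO. En1 had 31 and 39 UMIs there, against 5 and 1 for the CKO. In the single CKO 2 member 1 UMI equals 557 CPM, above the En2 level of any library, so its 0 does not inform on deletion. In the other gated neurons En2 was at 253, 204, 64.4 and 40.1 CPM after TMM scaling, in the order control 1, control 2, CKO 1 and CKO 2. It was lower in the CKO by a log2 change of -2.09 (SE 0.27, edgeR adjusted p = 0.0320). En1 did not pass, at 555, 530, 381 and 829 CPM with a log2 change of 0.15 (SE 0.32, edgeR adjusted p = 0.881). The labels do not give the deleted stretch of either gene, and 3′ counts can lie outside it.

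No test of CKO against control was made within members, because both CKO libraries held fewer than 10 members. Their 4 cells were unlike each other. One CKO 1 member had 26399 UMIs, 13 of Meis2, 19 of Barhl1, 2 of Col25a1 and 151 of the 6 dividing-cell markers. The others had 9707, 1389 and 1796 UMIs and at most 2 of those markers. Whether the CKO effect differed between members and the other gated neurons was tested by an interaction term over 8765 genes. It called 1 gene (0.0114%), the DNA topoisomerase gene Top2a, with a log2 difference of 3.75 (SE 0.76, edgeR adjusted p = 0.00644). All 53 Top2a UMIs of the CKO members came from the 1 cell just described, and without that cell no gene was called by edgeR, with 516 at an unadjusted p under 0.05. In simulated data this test recovered none of the genes changed 2-fold or 4-fold.

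The genes that stood out in members were also followed in the gated neurons outside the group, where the cells sufficed for a test. Of 10850 genes 4 were called by edgeR (0.0369%), with En2 lower (0.00922%) and Fam210b, Sel1l3 and Ppp1r14c higher (0.0276%) in the CKO, the latter by log2 changes of 2.11, 1.93 and 1.86. At an unadjusted p under 0.05 there were 1436 genes. None of the 12 genes higher in members was called by edgeR, and 1 of them, Nrp1, by DESeq2, which called 145 of 5742 genes. Under edgeR's other settings with all 4 libraries, from 0 to 3 of the 12 were called. Of the 12, 11 had a log2 change below 0, against 49.8% of all genes, with a median of -0.32. In the Bnc2 and Grm5 groups only, 8 of the 12 were below 0, against 49.6% of all genes. Without control 1 it was again 8, against 48.6%. The 12 genes were chosen by their ratio to these same neurons of the controls, so their choice is not independent of this fit. Some of their changes were near 0, such as -0.062 for Armh4 and -0.056 for Rnf44. The counts below 0 are therefore not read as a result about the 12 genes. Nrp1 was at 346, 219, 128 and 163 CPM, and both controls were above both CKO libraries, with a log2 change of -0.96 (SE 0.26, edgeR adjusted p = 0.178), which was -0.60 without control 1. Spock1 was at 78.3, 67.9, 36.6 and 34.2 CPM, with a log2 change of -1.03 (SE 0.23, edgeR adjusted p = 0.107), which was -1.84 after thinning and -0.55 without the Rflna group. Cdh13 was at 163, 58.1, 44.9 and 54.3 CPM, so its log2 change of -1.13 rested on control 1, and without that library it was -0.24. Onecut2 went the other way, at 159, 121, 252 and 181 CPM, with a log2 change of 0.65 (SE 0.25, edgeR adjusted p = 0.296), which was 0.39 without CKO 1 and 0.26 after thinning.

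**Figure D5:**
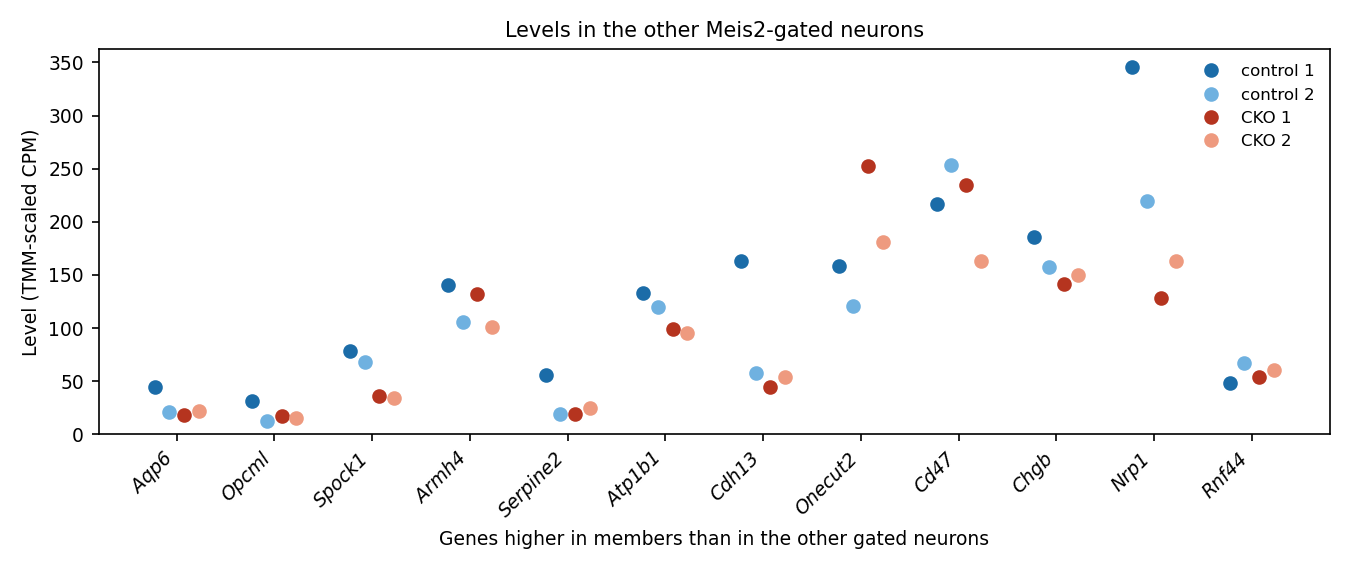
TMM-scaled CPM, in gated neurons outside the Gria1 group, of the 12 genes that were higher in members than in those neurons in the controls, with a point for each library. For Nrp1, Spock1, Atp1b1, Cdh13 and Chgb both controls are above both CKO libraries, for Onecut2 both are below, and no gene passed edgeR's test with the settings of the plotted values. The share of all genes without overlap between the groups was not counted, so this is not read as a result about the 12 genes.

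Of the 12 genes lower in members 4 had a log2 change below 0 in the same fit, against 49.8% of all genes, with a median of 0.41. They too were chosen by their ratio to these neurons, so this is not read as a result about them. Barhl1 was at 225, 138, 356 and 396 CPM, with a log2 change of 1.06 (SE 0.26, edgeR adjusted p = 0.143). Ebf1 was at 946, 1821, 548 and 656 CPM, with a log2 change of -1.20 (SE 0.31, edgeR adjusted p = 0.166), which was -0.65 without control 2. Slc17a6 was at 333, 345, 239 and 220 CPM, with one of -0.56 (SE 0.21, edgeR adjusted p = 0.293). Apart from En2, no gene of the 12 lists was called in these neurons by edgeR. DESeq2 called 11 genes of the lists, En2 with Barhl1, Ebf1, Nhlh2, Grin2b, Cntn2, Nrp1, Slitrk1, Epha3, Epha4 and Syt4. Over all genes DESeq2 called 145 of 5742. The list genes among those 5742 were not counted, so the 11 are not read as a result about the lists. The composition of the neurons compared differed, since the Rflna group made up 27.8% and 14.3% of gated neurons in the CKO and 6.47% and 3.90% in the controls. Without the Rflna group the median of the 12 genes higher in members was -0.43. The 4 transcripts that chose the members were also read over all gated neurons, members included. There the controls stood above the CKO without overlap for Gria1, Col25a1 and Sema3e, but not for Cntnap4. Gria1 was at 73.3, 19.1, 6.01 and 4.96 CPM, Col25a1 at 52.3, 42.3, 13.9 and 11.6 CPM, and Sema3e at 66.1, 34.0, 22.9 and 19.0 CPM. Cntnap4, at 34.1, 9.57, 3.01 and 9.91 CPM, overlapped between the groups. These levels are given without a test, because the members were chosen on them. The share of all genes without overlap was not counted, so the levels are not read as further evidence on the share of members.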

How the data were processed

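Per the file headers and the submitters' processing notes, the authors made the matrices with Cell Ranger 5.0.0 on mm10, and the deposited values are raw UMI counts per gene and barcode. Coordinates are from GENCODE M21 (GRCm38), in which 32235 of 32285 gene IDs were found. The members, gene lists and comparisons were chosen with earlier results of these data known.

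Doublets were scored by Scrublet (scanpy 1.11.5) per library, and the cells of highest score, 0.8% for every 1000 cells (32 to 124 cells), were removed only as an alternative. Counts were summed per library, so that libraries and not cells are the replicates. They were tested with edgeR 4.0.16 (two-sided quasi-likelihood F test in R 4.3.3, with TMM and filterByExpr), and Benjamini-Hochberg adjustment ran over all genes tested, at a threshold of 0.05. Numbers of cells per class were tested likewise with gated neurons as offset and no TMM. The interaction fit kept the library as a block. The 28 rule genes were left out of the interaction fit and of the fit of the other gated neurons. DESeq2 1.42.0 was an alternative, as were other size factors, no filter, a replicate block, stricter membership, thinning, and leaving out each library. Permutation tests were exact (scipy 1.17.1). The edgeR fits were tested on simulated data, in which every gene had the same fixed dispersion. Changed genes were drawn from those above a minimum total count, and recovery was counted over those that passed the filter. The real spread between libraries was not simulated, so the recovery does not give the power in these data. For genes changed 2-fold and 4-fold, the fit of other gated neurons recovered 52.6% and 96.9%, with 8 false calls among 10785 genes tested, and the interaction fit 0% and 0%.

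The genes named were 32 fixed genes, up to 8 called genes each way per fit, and the 12 genes each way with the largest smallest ratio over 4 libraries. A second set of 12 each way, from the controls alone with at least 100 CPM and a 2-fold difference in both, was added after the CKO libraries were found to hold 3 and 1 members. The fit of the other gated neurons was added for the same reason.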

Additional observations from a re-analysis of the deposited data

Results flagged for a closer look

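Top2a differed between members and the other gated neurons in its CKO effect, by a log2 difference of 3.75 in edgeR's interaction term (adjusted p = 0.00644). Its 53 UMIs in CKO members came from 1 cell of CKO 1 with 26399 UMIs, and without that cell no gene was called.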

How the results depend on the processing

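The log2 ratio of the share of members was below 0 under every alternative run, and passed the threshold only with the replicate number as a block (-2.60, edgeR adjusted p = 0.0382). It was -0.51 (SE 2.55) in cells of high depth and low mitochondrial share and -1.30 (SE 0.94) for all carriers of the 4 genes. After 1 draw of thinning to 3000 UMIs it was -5.45 (SE 5.06). That draw left 9, 5, 0 and 0 members in controls 1 and 2 and CKO 1 and 2, so the size of this ratio is not informative. The log2 ratio ranged from -3.09 to -1.58 as each library was left out. The interaction fit called 1 gene, but 8 with RLE size factors, 3 without doublets, 0 with at least 3 UMIs for membership, 0 without the dividing member, and 0 to 73 as each library was left out. With CKO 1 or CKO 2 left out it called 71 and 73 genes, where the lone CKO library is assumed to vary like the others. Genes at least 2-fold higher in members of all 4 libraries numbered 4, but 2 against the Bnc2 group and 9 against the Grm5 group. In the controls alone they numbered 12, but 31 against the Grm5 group and 94 after thinning to 3000 UMIs, which leaves few members. In the other gated neurons 4 genes were called by edgeR, but 145 by DESeq2, 368 without a low-count filter, 11 in cells of high depth, 2 without the Rflna group, 148 in the Bnc2 and Grm5 groups only, 40 after thinning, and 53 to 1347 as each library was left out, the highest without CKO 2. The cause was not tested. With the replicate numbers as a block the same fit called 67 genes, and with crossed numbers 519. Replicate 1 deviated from the group mean in opposite directions in control and CKO (Pearson's r = -0.17 across 10850 genes, which are not independent replicates), so the numbers were not treated as pairs. En2 was lower and past the threshold under all of these settings. En1 reversed to -0.37 in cells of high depth and to -0.021 in the Bnc2 and Grm5 groups, and ranged from -0.50 to 0.61 as each library was left out. Nrp1 passed with DESeq2 (adjusted p = 0.0496) and Ebf1 too (adjusted p = 0.00636). Without a low-count filter edgeR gave adjusted p = 0.0189 for Nrp1, 0.00123 for Ebf1, 0.00391 for Cdh13 and 0.0140 for Spock1. Of the 12 genes higher in members edgeR called 3 without a filter, where it called 368 of 18474 genes. With crossed numbers it called 3 of the 12, and 519 of 10850 genes. In the Bnc2 and Grm5 groups only it called 1, Cdh13, and 148 of 8502 genes. After thinning it called 1, Spock1, and 40 of 7707 genes. These counts are not read as a result about the 12 genes. The median of the 12 genes higher in members stayed below 0, from -0.67 to -0.18, and is likewise not read as a result about them. The alternatives planned for CKO against control within members were not run, nor were the interaction after thinning or in cells of high depth, and the 4-library ratios after thinning, since a library then held no member.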
